A study of Mus with 18 samples.

Results

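Matrix metalloproteinases (MMPs) and their tissue inhibitors (TIMPs) were followed through the 18 RNA-sequencing libraries of a mouse study of moringa isothiocyanate-1 (MIC-1), a sulfur compound from the seeds of the moringa tree, given with or before lipopolysaccharide (LPS), the endotoxin of Gram-negative bacteria. The members were taken by gene symbol from a list chosen with earlier results of these data known: Mmp2, Mmp3, Mmp9, Mmp12, Mmp13, Mmp14, Timp1, Timp2, Timp3 and Timp4. All 10 were present among the 21401 symbols of both expression tables, one for cultured cells and one for muscle. The cultured cells were labelled wild-type C2C12, a mouse myoblast line that is a model of proliferating muscle precursors and not of mature fibres, with 3 libraries each of saline control, LPS at 1 μg/mL, and LPS at 1 μg/mL with MIC-1 for 24 h. For the MIC-1 dose the labels give 10 μM, whereas the text on the sequenced cells has 1 μM. As vehicle for the cells and solvent of their MIC-1, the study's methods name ethanol and not saline. The muscle was gastrocnemius of wild-type C57BL/6 male mice, trimmed of fat and connective tissue, with 3 libraries each of vehicle control, LPS at 10 mg/kg by intraperitoneal injection, and the same LPS after daily MIC-1 by gavage at 80 mg/kg for 3 days. Muscles were collected 16 h after LPS, and the MIC-1 was dissolved in DMSO. The ages of the mice are not given in the sources used here. Nothing in the labels says that the 3 libraries of a cultured group came from separate cultures, or those of a muscle group from separate mice, so the p-values measure the spread between these libraries, which may be technical.

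MMPs are zinc-dependent endopeptidases that cut the proteins of the extracellular matrix and many cell-surface and secreted proteins. Most leave the cell as inactive proenzymes that must be cleaved before they act, and TIMPs block the active enzymes by binding at the catalytic zinc, so that transcript levels of either family do not give enzyme activity. In skeletal muscle the gelatinases Mmp2 and Mmp9 are known for their part in basement membrane turnover during repair, and macrophages and neutrophils that enter injured muscle bring MMPs of their own.

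The C2C12 libraries did not all carry the markers of the labelled cell, as the plot of marker lists by library shows. In the libraries labelled control and LPS, the 10 macrophage markers found had a summed level of 9651 to 9705 and 6897 to 7068 FPKM (fragments scaled to transcript length and library size), with all 10 over 1 FPKM in each library. The summed level of the 9 myogenic markers was only 1.08 to 4.58 FPKM in those 6 libraries, where Myf5 was listed at 0 and Myod1 at no more than 0.0355 FPKM. In the libraries labelled LPS-MIC-1 the same myogenic list summed to 1115 to 1375 FPKM, 8 fibroblast markers to 442 to 537 FPKM, and the macrophage list to 268, 79.8 and 90.6 FPKM. Every C2C12 contrast with LPS-MIC-1 therefore also set libraries rich in macrophage transcripts against libraries rich in myoblast transcripts, and treatment and cell identity cannot be told apart in it. All muscle libraries held fibre transcripts at 183097 to 247471 FPKM in sum over 10 genes. Lcn2, a gene known to respond to LPS, was at 1162 to 1318 FPKM in muscle under the LPS-MIC-1 label but at only 0.336 to 1.34 under LPS and 0.111 to 0.991 under control, whereas in C2C12 it was highest under the LPS label. Groups are named here by their deposited labels. Whether the labels of the muscle and C2C12 libraries are correct could not be settled from these values, and every comparison between the LPS and LPS-MIC-1 labels depends on it. One muscle library, LPS-MIC-1 replicate 3, stood apart with a macrophage list of 179.8 FPKM, against 16.2 to 32.3 FPKM in the other 8. In bulk samples, fewer cells of a type and less RNA per cell cannot be told apart.

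**Figure D1:**
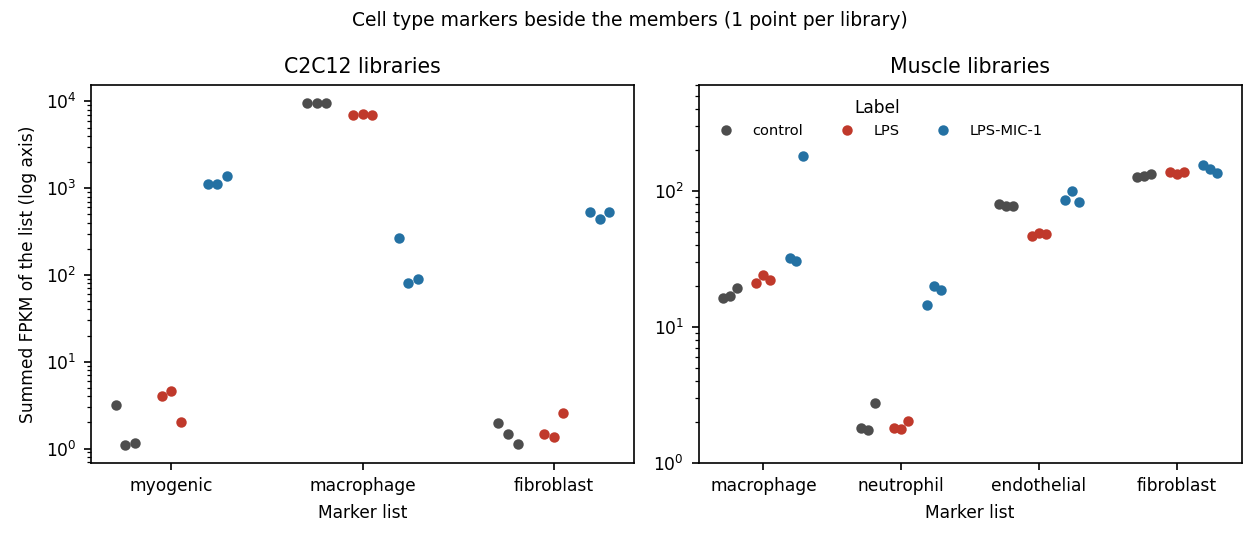
Summed FPKM of cell type marker lists (log axis) in each C2C12 library (left) and each muscle library (right), 1 point per library, coloured by label. In C2C12 the macrophage list was at 6897 to 9705 FPKM under the control and LPS labels and at 79.8 to 268 FPKM under LPS-MIC-1, while the myogenic list ran the other way.

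The depth behind the values could be seen in part. Relative depth was taken against control replicate 1. It was 0.841 to 0.846 in LPS and 0.717, 0.883 and 0.464 in the 3 LPS-MIC-1 libraries of C2C12, and 0.988 to 1.11 across the muscle libraries. After scaling by it, low FPKM values of some members fell on whole steps that could each be 1 read. These were Mmp2, Mmp9, Mmp12, Mmp13 and Timp3 in C2C12 and Mmp3, Mmp9 and Mmp13 in muscle, and steps are given for no others. The total number of reads per library is unknown, so that counting intervals are not given, and step numbers are the smallest whole numbers that met the values, within 0.1 step or 0.5% of the value.

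In the C2C12 libraries the LPS label went with higher Mmp9, Mmp13, Mmp14 and Timp1, and the LPS-MIC-1 label with higher values of every tested member except Mmp9. A gene was tested where its mean over the 9 libraries of a table was over 1 FPKM, and called where its absolute log2 fold change was over 1 and its adjusted p was below a limit, 0.001 for C2C12 and 0.05 for muscle (limma on log2(FPKM + 0.1), Benjamini-Hochberg over all genes tested). This left 8 members in C2C12, without Mmp12 and Timp4. Between LPS and control, 4 of the 8 rose and 0 fell, where 20.9% of all 10877 genes tested were called in either direction, 10.9% higher and 10% lower. Between LPS-MIC-1 and LPS, 7 rose and 1 fell, where 49.9% of all genes were called, 24.3% higher and 25.6% lower. Between LPS-MIC-1 and control, 7 rose and 0 fell, where 43.3% were called, 21.1% higher and 22.1% lower. The groups did not overlap for 6, 8 and 7 of the 8 in these contrasts, beside 79.4%, 85.5% and 83% of all genes. The median log2 fold change over the 8 was 1.86, 7.21 and 7.74 in these 3 contrasts, beside 0, -0.05 and -0.06 over all genes tested. Filtering on the mean kept members through the group where they were high, such as Mmp2, Mmp3, Mmp13 and Timp3 through LPS-MIC-1 and Mmp9 through LPS. The calls, counts and medians in contrasts with those groups are therefore not independent of the filter. The contrasts share groups, so the 3 counts are not independent of one another.

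**Figure D2:**
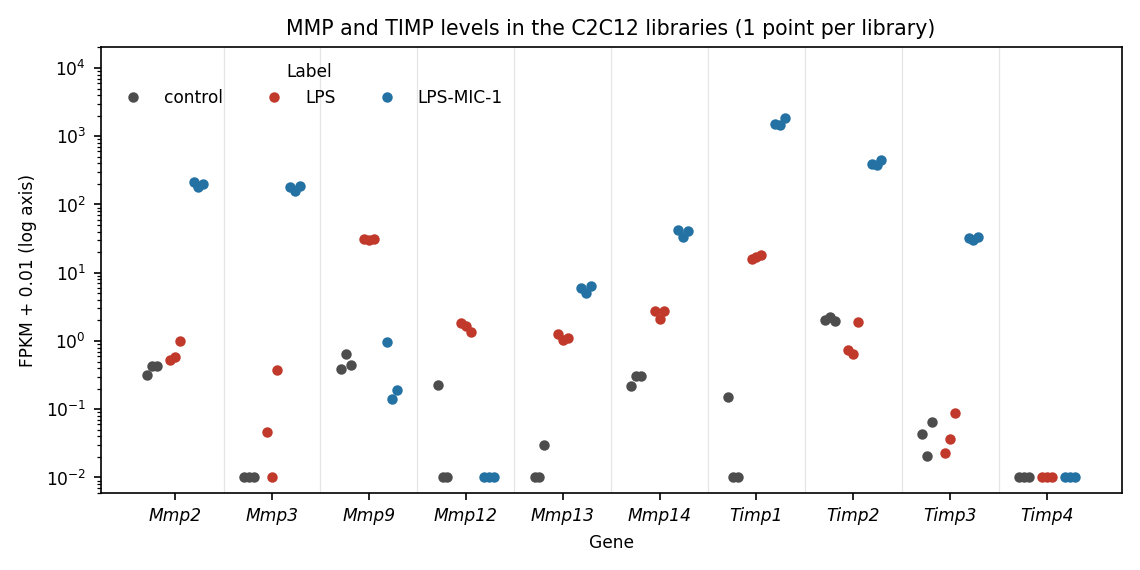
FPKM of the 10 members in the 9 C2C12 libraries, with 0.01 FPKM added for the log axis, 1 point per library, coloured by label. Mmp9 was near 30 FPKM under the LPS label alone, whereas Mmp2, Mmp3, Timp1, Timp2 and Timp3 were at 30.5 FPKM or more under LPS-MIC-1 and at 18.4 FPKM or less elsewhere.

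The gelatinases went in opposite directions. Mmp9, gelatinase B, a secreted enzyme made by macrophages and neutrophils among others, was at 0.382, 0.640 and 0.438 FPKM in the control libraries, 31.4, 30.0 and 30.8 in LPS, and 0.949, 0.132 and 0.179 in LPS-MIC-1. LPS stood apart from both other groups, which overlapped each other. Mmp9 was 63.2-fold higher in LPS than in control, a log2 fold change of 5.74 ± 0.52 (SE, n = 3 per group, limma adjusted p = 2.71e-05), and LPS-MIC-1 was 73.2-fold below LPS, where Mmp9 fell by 6.24 ± 0.52 on the log2 scale (limma adjusted p = 6.89e-06). The size of that fall depended on 1 library, LPS-MIC-1 replicate 1, without which Mmp9 was 198-fold below LPS, with a log2 fold change of -6.92. The difference between LPS-MIC-1 and control was -0.50 ± 0.52 (limma adjusted p = 0.391, 95% interval -1.70 to 0.70) and was set by the same library. It held 41 steps of Mmp9 against 7 and 5 in its replicates, its excess came to 2.58% of the LPS mean, and it was also the library of that group with the highest macrophage sum. Without it Mmp9 was called lower than in control, with a log2 fold change of -1.18 (limma adjusted p = 0.000969). The same change was not called when LPS replicate 3 was left out as well (limma adjusted p = 0.00275). Its size depends on the 0.1 added, which is close to the remaining LPS-MIC-1 values.

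Mmp2, gelatinase A, a constitutive product of fibroblasts and other mesenchymal cells, was at 0.310, 0.426 and 0.421 FPKM in control, 0.511, 0.574 and 0.977 in LPS, and 216, 180.2 and 202 in LPS-MIC-1. The control and LPS values rested on only 18 to 25 and 25 to 48 steps a library. LPS-MIC-1 was 289.8-fold above LPS, a log2 fold change of 8.03 ± 0.22 (limma adjusted p = 1.39e-08), and its value against control was 8.69 ± 0.22 (limma adjusted p = 8.80e-09). All 3 LPS libraries were above all 3 control libraries, but the difference, 0.66 ± 0.22, was under the fold required (limma adjusted p = 0.0293).

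Mmp14, the membrane-bound enzyme MT1-MMP that activates the Mmp2 proenzyme in a complex with Timp2, was graded across the labels. Its FPKM was 0.207, 0.300 and 0.297 in control, 2.75, 2.08 and 2.75 in LPS, and 42.4, 33.7 and 41.5 in LPS-MIC-1, with no overlap between any groups. It rose 9.43-fold with LPS, by 2.84 ± 0.17 on the log2 scale (limma adjusted p = 2.83e-06), and was 15.5-fold higher again in LPS-MIC-1, by 3.91 ± 0.17 (limma adjusted p = 1.37e-07). The 3 components of that activation complex, Mmp14, Mmp2 and Timp2, were thus all highest under LPS-MIC-1, and Mmp2 and Timp2 were at or under 2.20 FPKM in each of the other 6 libraries.

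Mmp3, Mmp12 and Mmp13 lie in 1 run of neighbouring MMP genes, in the order Mmp13, Mmp12, Mmp1b, Mmp3, Mmp1a, Mmp10 and Mmp8 in the RefSeq gene table of the mouse, and followed 3 different patterns. Mmp3, stromelysin-1, which cuts proteoglycans and can activate other MMP proenzymes, was listed at 0 in all 3 control libraries, at 0.0366, 0 and 0.366 FPKM in LPS, and at 178, 159.6 and 189 in LPS-MIC-1. The log2 fold change between LPS-MIC-1 and LPS was 9.88 ± 0.50 (limma adjusted p = 3.19e-07), a size that depends on the 0.1 added since the LPS values are near 0. It was 10.55 without LPS replicate 3, the highest of the LPS libraries. It was called against control as well (limma adjusted p = 2.17e-07), with no fold given against a group listed at 0.

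Mmp13, collagenase-3, which opens fibrillar collagen, was listed at 0, 0 and 0.0196 FPKM in control, at 1.24, 1.02 and 1.11 in LPS, and at 5.98, 5.01 and 6.38 in LPS-MIC-1. In steps, control held 1 in a single library and LPS held 52, 43 and 47. The groups did not overlap, and Mmp13 rose by 3.52 ± 0.15 on the log2 scale with LPS (limma adjusted p = 5.55e-07). As control was at or near 0, this size depends on the 0.1 added, and it ran from 1.08 to 6.30 under alternative settings. LPS-MIC-1 was 5.15-fold higher again, by a log2 fold change of 2.26 ± 0.15 (limma adjusted p = 1.81e-06).

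Mmp12, the macrophage metalloelastase, had a pattern like that of Mmp9 at a lower level. Its values were 0.218, 0 and 0 FPKM in control, 1.85, 1.64 and 1.32 in LPS, and 0 in all LPS-MIC-1 libraries. It was below the limit for testing. Without the filter it was called in both contrasts with LPS, higher than control (limma adjusted p = 0.000183) and falling from LPS to LPS-MIC-1 (limma adjusted p = 3.23e-05). Across the 9 libraries the log2 levels of Mmp12 and Mmp9 had a Pearson r of 0.94, a description over libraries that share their labels and cell markers.

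Timp1, the inducible inhibitor of most secreted MMPs, reached the highest level of any member. Its FPKM was 0.141, 0 and 0 in control, 15.7, 16.8 and 18.4 in LPS, and 1493, 1483 and 1843 in LPS-MIC-1. The 3 groups were far apart from one another. Timp1 rose by 6.99 ± 0.32 on the log2 scale with LPS (limma adjusted p = 7.14e-07), and LPS-MIC-1 was 94.7-fold above LPS, a log2 fold change of 6.55 ± 0.32 (limma adjusted p = 2.54e-07). As control was at 0 in 2 libraries, the size of any change from it depends on the 0.1 added.

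Timp2, the constitutive inhibitor that also docks proMmp2 to Mmp14, was the main TIMP of the control libraries at 2.01, 2.20 and 1.95 FPKM. It was at 0.737, 0.635 and 1.86 FPKM in LPS and at 389, 373 and 451 in LPS-MIC-1. Control lay above LPS in every library, by a narrow margin over LPS replicate 3. The fitted difference of LPS from control was -1.01 ± 0.33 and was not called (limma adjusted p = 0.0262). Without LPS replicate 3 it was -1.45 and was called (limma adjusted p = 5.12e-05). That library exceeded the mean of its replicates in Mmp2, Mmp3, Timp2 and Timp3 by 0.218%, 0.198%, 0.290% and 0.184% of the respective LPS-MIC-1 means. In Mmp14 and Timp1 the excess was 0.859% and 0.133%, while Mmp12 and Mmp13 were below the mean of the replicates. The reason was not tested. LPS-MIC-1 was 375-fold above LPS for Timp2, with a log2 fold change of 8.56 ± 0.33 (limma adjusted p = 7.16e-08), and 589-fold above it without LPS replicate 3, with a log2 fold change of 9.00.

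Timp3, which stays bound to the matrix and also inhibits ADAM proteases, was at 0.0332, 0.0110 and 0.0542 FPKM in control and 0.0131, 0.0263 and 0.0784 in LPS, in all 1 to 6 steps a library. These groups overlapped, and a difference between them was not detectable at this depth (0.05 ± 0.20, limma adjusted p = 0.845). In LPS-MIC-1 it was at 31.9, 30.5 and 33.2 FPKM, a log2 fold change of 7.87 ± 0.20 from LPS (limma adjusted p = 1.12e-08). As the LPS values were near 0, this size depends on the 0.1 added, and it ran from 4.98 to 9.57 under alternative settings. Against control, the log2 fold changes of LPS-MIC-1 were 6.74 for Mmp14, 5.79 for Mmp13, 13.54 for Timp1, 7.55 for Timp2 and 7.92 for Timp3, and all 5 were called. The sizes for Mmp13, Timp1 and Timp3 depend on the 0.1 added, since their control values were at or near 0. Timp4, the TIMP best known from heart and other striated muscle, was listed at 0 in all 9 C2C12 libraries.

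**Figure D3:**
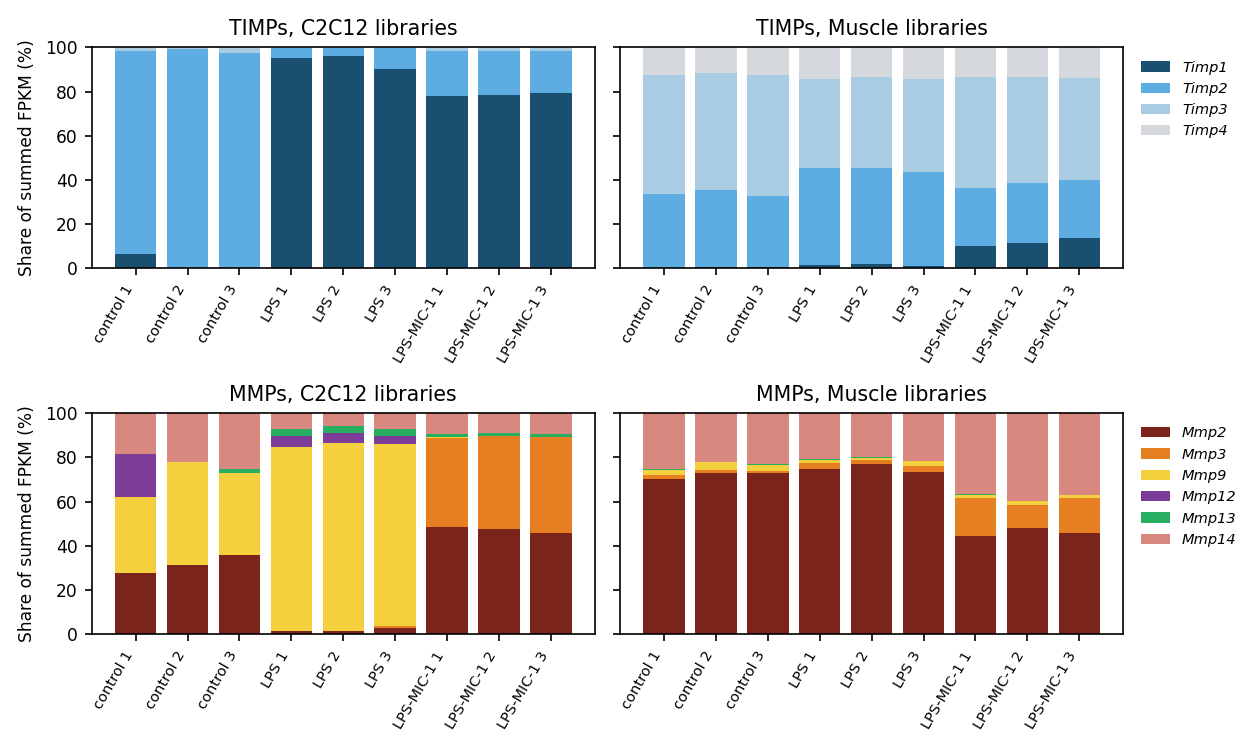
Share of each member in the summed FPKM of the 4 TIMPs (upper row) and the 6 member MMPs (lower row) in every C2C12 (left) and muscle (right) library; each bar is 1 library and adds to 100%. Timp2 filled 92.0 to 99.5% of the C2C12 control TIMPs, Timp1 filled 90.5 to 96.2% in LPS, and in muscle Mmp14 and Mmp3 took larger shares under LPS-MIC-1.

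The make-up of both families differed between the C2C12 groups, as the plot of shares by library shows. FPKM is per length of transcript, so members may be added and compared on it. Timp2 made up 92.0 to 99.5% of the summed TIMP level in control, while Timp1 made up 90.5 to 96.2% under LPS and 78.0 to 79.2% under LPS-MIC-1, with Timp2 then at 19.4 to 20.3%. Of the summed level of the 6 member MMPs, Mmp9 held 82.5 to 84.9% in LPS, while in LPS-MIC-1 Mmp2 held 46.0 to 48.7% and Mmp3 held 40.2 to 43.1%. The ratio of summed TIMP to summed member MMP level ran from 1.62 to 1.95 under the control label, from 0.436 to 0.544 under LPS and from 4.32 to 5.31 under LPS-MIC-1. The order of control and LPS in this ratio depended on which MMPs were counted. Over all 22 MMPs found in the tables it was 0.377 to 0.424 under the control label, 0.392 to 0.480 under LPS and 3.99 to 4.85 under LPS-MIC-1, so that control and LPS overlapped. Mmp19, which is no member, was alone at 3.52 to 4.04 FPKM in control, above the summed TIMPs there. By either sum LPS-MIC-1 was the group with the highest ratio. Each group was 3 libraries, for which an exact permutation test cannot go below p = 0.1.

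Of 53 other genes of matrix proteolysis in 4 lists, 52 were found in the tables. Counts of these lists in C2C12 stand beside 20.9% of all genes called between LPS and control and 49.9% between LPS-MIC-1 and LPS. Among other MMPs, 3 were tested in C2C12. Of these, 0 were called between LPS and control. An unadjusted p under 0.05 (limma) was seen there for 1 of the 3, beside 7198 of all 10877 genes tested. All 3 were higher in LPS-MIC-1 than in LPS, led by Mmp11, stromelysin-3, at 20.3 to 21.6 FPKM against 0 to 0.168. Mmp10, stromelysin-2, from the same run of genes as Mmp3, was at 3.15 to 3.97 FPKM in LPS-MIC-1 and listed at 0 in the other 6 libraries.

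Genes that act on or with the members were called in both directions. Among all genes, 20.9% were called between LPS and control and 49.9% between LPS-MIC-1 and LPS. Of 8 MMP regulators and receptors tested, 4 rose between control and LPS, led by Lcn2, lipocalin-2, which binds Mmp9. Lcn2 went from 0.530 to 1.92 FPKM in control to 2647 to 2697 in LPS, and was at 3.38 to 72.1 in LPS-MIC-1, so that Lcn2 and Mmp9 were both highest in LPS. Of 6 plasminogen activation genes tested, 3 rose between control and LPS. Between LPS and LPS-MIC-1, 3 of these 6 rose and 1 fell, and Serpine2, an inhibitor of plasminogen activators, was at 16.2 to 26.1 FPKM in LPS-MIC-1 against 0 to 0.0627 in LPS.

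Of 10 ADAM and ADAMTS proteases tested, 3 rose and 0 fell between control and LPS, beside 20.9% of all genes called. Between LPS and LPS-MIC-1, 3 of the 10 rose and 5 fell, beside 49.9% of all genes called. Adam8, a protease of myeloid cells, was at 31.7 to 39.9 FPKM under the control label, 140.0 to 164 under LPS and 1.57 to 1.73 under LPS-MIC-1. Adamts14, which trims procollagen, was at 6.14 to 8.88 FPKM in LPS-MIC-1 and at 0.0118 to 0.0237 in LPS. In every one of these lists the macrophage and myogenic markers moved with the contrast to LPS-MIC-1, and their part in the result was not tested.

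In muscle, no member was called between LPS and control, and Mmp14 and Timp1 were higher with LPS-MIC-1 than with either other label. The filter left 6 members, without Mmp3, Mmp9, Mmp12 and Mmp13. Timp1 passed the filter only through LPS-MIC-1, with means of 0.309, 0.801 and 6.58 FPKM in control, LPS and LPS-MIC-1. Its calls in LPS-MIC-1 are therefore not independent of the filter, and the contrasts share groups as in C2C12. Between LPS and control, 0 of the 6 were called, beside 1.25% of all 9475 genes tested, 0.654% higher and 0.591% lower, and 3 of the 6 (Mmp14, Timp2 and Timp3) passed the adjusted p but not the fold. By limma, 5 of the 6 had an unadjusted p under 0.05. Between LPS-MIC-1 and LPS, 2 rose and 0 fell, where 15.1% of all genes were called, 9.67% higher and 5.44% lower. Between LPS-MIC-1 and control, 2 rose and 0 fell, where 15.5% were called, 9.33% higher and 6.12% lower. The groups did not overlap for 5, 4 and 5 of the 6, beside 36.5%, 64.2% and 64.6% of all genes. The median log2 fold change over the 6 was -0.08, 0.14 and -0.07, beside 0.01, -0.01 and 0.01 over all genes.

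**Figure D4:**
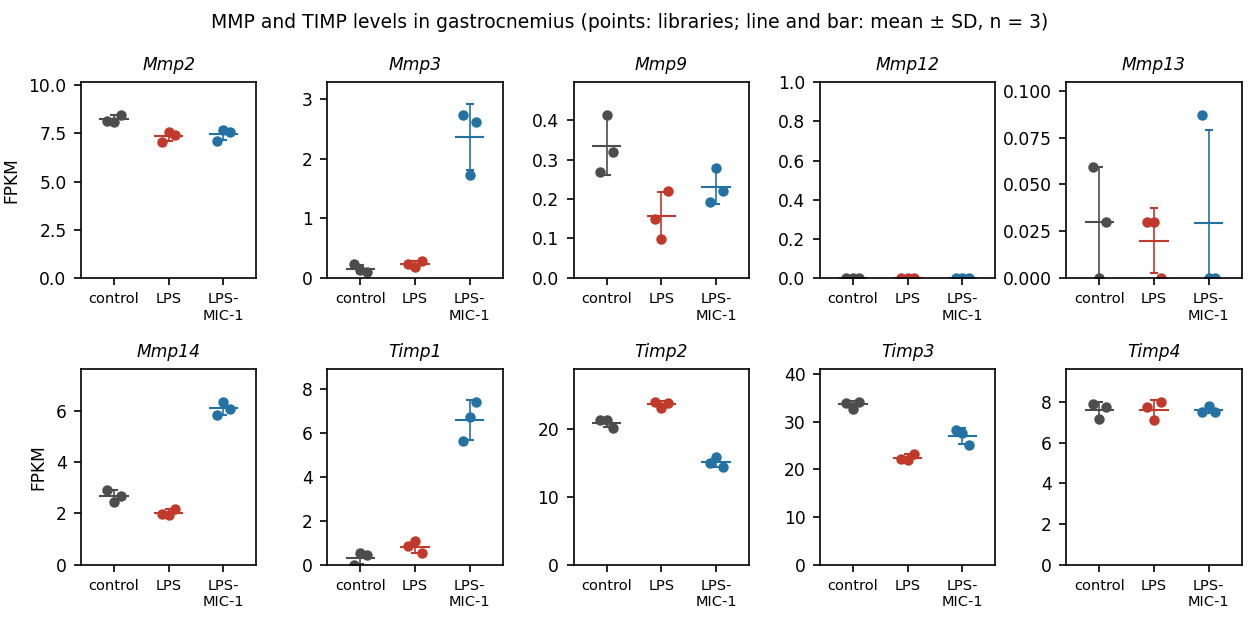
FPKM of the 10 members in the 9 gastrocnemius libraries by label, each panel on its own linear axis from 0; points are libraries, lines and bars are the mean ± SD (n = 3). Mmp3, Mmp14 and Timp1 were highest in all 3 LPS-MIC-1 libraries, Timp3 was lowest in LPS, and Timp4 and Mmp2 stayed within 7.07 to 8.46 FPKM.

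Mmp14 was at 2.92, 2.44 and 2.68 FPKM in control, 1.97, 1.95 and 2.18 in LPS, and 5.85, 6.37 and 6.09 in LPS-MIC-1. The 3 groups did not overlap. Mmp14 rose 3.00-fold between LPS and LPS-MIC-1, by 1.54 ± 0.09 on the log2 scale (SE, n = 3 per group, limma adjusted p = 2.38e-06), and stood 1.16 ± 0.09 above control (limma adjusted p = 1.27e-05). Between control and LPS the difference was -0.38 ± 0.09, under the fold required (limma adjusted p = 0.0260).

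Mmp2 was the most abundant of the 6 member MMPs in muscle, at 8.15, 8.09 and 8.46 FPKM in control, 7.07, 7.58 and 7.40 in LPS, and 7.12, 7.69 and 7.57 in LPS-MIC-1. The LPS and LPS-MIC-1 libraries overlapped, with a log2 difference of 0.02 ± 0.05 (95% interval -0.11 to 0.15, limma adjusted p = 0.772), while control was above both. Against control the differences of -0.16 and -0.14 did not pass (limma adjusted p = 0.0866 and 0.0553). In muscle, therefore, Mmp14 changed with LPS-MIC-1 where the enzyme it activates did not pass the test.

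Mmp3 was low in control at 0.228, 0.136 and 0.0916 FPKM and in LPS at 0.230, 0.185 and 0.274, and stood at 2.74, 1.73 and 2.62 FPKM in LPS-MIC-1. In steps these were 5, 3 and 2, then 5, 4 and 6, then 61, 40 and 64, so that the last group was apart from the others by far more than the spread. Its mean over the 9 libraries was just below the 1 FPKM needed for testing. Without the filter it was called, with a log2 fold change of 2.88 ± 0.28 from LPS (limma adjusted p = 7.06e-05) and 3.30 ± 0.28 from control (limma adjusted p = 3.02e-05). The ratio of means between LPS-MIC-1 and LPS was 10.3.

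Mmp9 in muscle rested on few reads, with values of 0.269, 0.414 and 0.320 FPKM in control (11, 17 and 13 steps), 0.148, 0.0990 and 0.220 in LPS (6, 4 and 9 steps), and 0.192, 0.279 and 0.220 in LPS-MIC-1 (8, 12 and 10 steps). All LPS libraries were below all control libraries, but without the filter the difference of -0.78 ± 0.24 did not pass (limma adjusted p = 0.101). Mmp13 was at 0 to 0.0871 FPKM, at most 3 steps a library, and Mmp12 was listed at 0 in all 9. A difference in these 2 was not detectable at this depth.

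Timp1 was at 0, 0.513 and 0.413 FPKM in control, 0.835, 1.05 and 0.517 in LPS, and 5.61, 6.72 and 7.40 in LPS-MIC-1. The last group was apart from the other groups, 8.21-fold above LPS, with a log2 fold change of 2.93 ± 0.63 (limma adjusted p = 0.00432). Without control replicate 1, the library listed at 0, the same change had a standard error of 0.25 and a limma adjusted p of 5.84e-05. The lowest LPS and the highest control library differed by little, and the difference between LPS and control was 1.47 ± 0.63 (95% interval 0.01 to 2.92, limma adjusted p = 0.165). Without control replicate 1 it was 0.64 (limma adjusted p = 0.199), and the difference of LPS-MIC-1 from control went from 4.39 to 3.56 (limma adjusted p = 4.33e-05).

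Timp2 was at 21.2, 21.3 and 20.1 FPKM in control, 24.0, 23.0 and 23.8 in LPS, and 14.9, 15.8 and 14.4 in LPS-MIC-1. The groups did not overlap, with LPS highest and LPS-MIC-1 lowest. The log2 difference of LPS-MIC-1 was -0.65 ± 0.05 from LPS and -0.47 ± 0.05 from control (limma adjusted p = 8.03e-06 and 5.27e-05), and that of LPS from control was 0.18 ± 0.05 (limma adjusted p = 0.0393). All 3 were under the fold required for a call. Timp2 was thus the member whose lower level with LPS-MIC-1 went beside the higher Mmp14, and over the 9 libraries their log2 levels had a Pearson r of -0.98, given as a description of libraries in 3 groups.

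Timp3, the most abundant TIMP of the control muscle, was at 34.0, 32.7 and 34.2 FPKM in control, 22.2, 21.8 and 23.3 in LPS, and 28.2, 27.7 and 25.0 in LPS-MIC-1. No groups overlapped, and LPS-MIC-1 lay between the others. LPS was -0.58 ± 0.05 from control on the log2 scale (limma adjusted p = 0.000296), LPS-MIC-1 0.26 ± 0.05 from LPS (limma adjusted p = 0.00305) and -0.32 ± 0.05 from control (limma adjusted p = 0.00107), all under the fold required. Endothelial markers, 6 genes, summed to 77.1 to 80.9 FPKM under the control label, 46.5 to 49.4 under LPS and 83.3 to 99.3 under LPS-MIC-1. The markers within the list did not move alike. Cldn5 and Esam, genes of endothelial junctions, had means of 31.5 and 25.7 FPKM in LPS-MIC-1, 5.64 and 12.2 in LPS and 10.2 and 17.6 in control. Pecam1 and Cdh5 had means of 7.34 and 22.0 FPKM in LPS-MIC-1, between LPS (5.90 and 18.9) and control (10.8 and 31.2), as Timp3 did. Kdr, a receptor for vascular endothelial growth factor, was lowest in LPS-MIC-1, with means of 2.59, 5.07 and 7.83 FPKM in LPS-MIC-1, LPS and control. The part of the endothelial markers in the Timp3 result was not tested.

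Timp4 was flat, at 7.91, 7.15 and 7.75 FPKM in control, 7.77, 7.09 and 8.003 in LPS, and 7.52, 7.79 and 7.48 in LPS-MIC-1. Every pair of groups overlapped, and the 3 log2 differences were 0.00, with 95% intervals that reached -0.15 and 0.15.

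**Figure D5:**
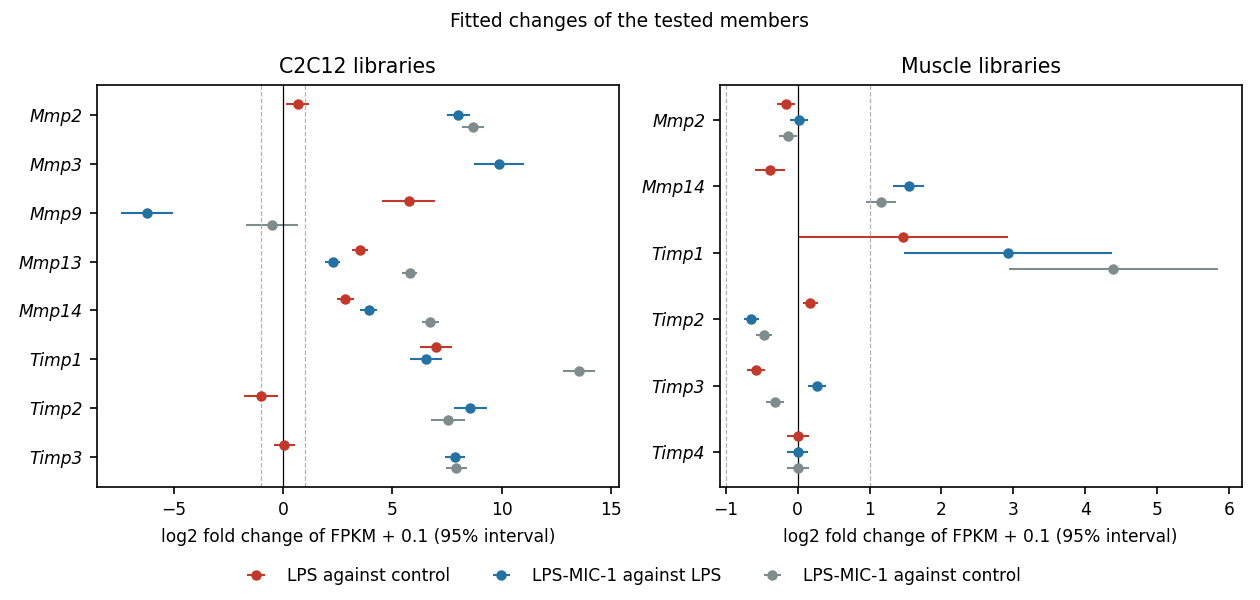
Fitted log2 fold changes of FPKM + 0.1 for the tested members in C2C12 (left) and muscle (right), with 95% intervals from limma; colours give the contrast, dashed lines the fold of 1 on the log2 scale needed for a call, and the axes of the panels differ. No change is drawn for Mmp3 against the C2C12 control, which was listed at 0. C2C12 values ran from -6.24 to 13.54, while in muscle the largest was 4.39, for Timp1 against control, which is 3.56 without the control library listed at 0.

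Mmp2 led the 6 member MMPs in every muscle group, with a shift in shares. It made up 70.1 to 73.1% of their summed level in control and 73.5 to 77.0% in LPS, but 44.5 to 47.9% in LPS-MIC-1, where Mmp14 held 36.6 to 39.6% and Mmp3 10.8 to 17.1%. Of the TIMPs, Timp3 led in control with 53.1 to 54.7%, Timp2 in LPS with 42.8 to 43.8%, and Timp3 in LPS-MIC-1 with 46.0 to 50.2%. The ratio of summed TIMP to summed member MMP level ran from 5.39 to 5.56 under the control label, from 5.38 to 5.79 under LPS and from 3.29 to 3.61 under LPS-MIC-1. The first 2 groups overlapped and the third was lower in every library, but this order rested on the choice of MMPs. Mmp15, a membrane-bound relative of Mmp14 that is no member, was at 9.91 to 11.6 FPKM in control and 9.07 to 10.5 in LPS, above Mmp2 in both, and at 4.38 to 4.81 in LPS-MIC-1. Over all 22 MMPs the ratio was 2.31 to 2.50 under the control label, 2.34 to 2.53 under LPS and 2.35 to 2.57 under LPS-MIC-1, and the groups overlapped.

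Markers of leukocytes and of fibroblasts moved with the LPS-MIC-1 label beside these values. The neutrophil list, 10 genes, summed to 1.73 to 2.74 FPKM under the control label, 1.76 to 2.02 under LPS and 14.4 to 20.0 under LPS-MIC-1, with Elane listed at 0 throughout. The macrophage list summed to 32.3, 30.6 and 179.8 FPKM in LPS-MIC-1 against 16.2 to 24.3 in the other groups. Without replicate 3, the library with the highest macrophage sum, the log2 fold change between LPS-MIC-1 and LPS was 1.54 for Mmp14 and 2.84 for Timp1 (limma adjusted p = 2.72e-05 and 0.0168), so neither call rested on it. Of 8 fibroblast markers, 0 were called higher and 4 lower between LPS and LPS-MIC-1, and 7 did not overlap in the lower direction. Among all 9475 genes tested, 9.67% were called higher and 5.44% lower, and 3002 did not overlap in the lower direction. Thy1 went from a mean of 6.22 FPKM in LPS to 0.994 in LPS-MIC-1, Col1a1 from 12.7 to 4.44 and Pi16 from 6.13 to 1.45, while Dcn, decorin, went the other way from 74.5 to 119.8, and the summed list was at 134.0 to 137.5 FPKM under LPS and 135.8 to 154 under LPS-MIC-1. The part of the neutrophil and fibroblast markers in the Mmp2, Mmp14 and TIMP values was not tested.

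Other proteolysis genes passed the test in muscle with the LPS-MIC-1 label. Between LPS and control, 0 of the 16 tested in the 4 lists were called, and 6 had an unadjusted p under 0.05 (limma). Between LPS-MIC-1 and LPS 8 of the 16 were called, and between LPS-MIC-1 and control 7, beside 15.1% and 15.5% of all genes. The only other MMP tested, Mmp15, fell between LPS and LPS-MIC-1 (log2 fold change -1.09, limma adjusted p = 1.12e-05). Mmp14 and Mmp15 thus changed in opposite directions. Of 6 ADAM and ADAMTS proteases 2 rose, Adamts9 and the procollagen-trimming Adamts2, with log2 fold changes of 2.42 and 2.28 (limma adjusted p = 1.24e-06 and 2.99e-06).

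Of 4 plasminogen activation genes tested, 2 rose and 1 fell between LPS and LPS-MIC-1, beside 15.1% of all genes called. Plaur, the urokinase receptor, was at 0.447 to 0.562 FPKM under LPS and 10.2 to 11.1 under LPS-MIC-1. Of 5 MMP regulators and receptors 2 rose, Lcn2 and the hyaluronan receptor Cd44.

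The tables were normalized separately, so that levels across them are set side by side without a test. Mmp9 and Mmp12, which in C2C12 were highest in the macrophage-rich LPS libraries, were at most 0.414 FPKM and 0 in muscle. Timp1 and Mmp14, at 15.7 to 18.4 and 2.08 to 2.75 FPKM in those LPS libraries, reached 7.40 and 6.37 FPKM in muscle. Mmp2, Mmp3, Timp1 and Timp2, at 159.6 FPKM or more in C2C12 LPS-MIC-1, were at most 24.0 FPKM in muscle, while Timp3 was at 30.5 to 33.2 FPKM there and 21.8 to 34.2 in muscle. Timp4 was seen in muscle and not in C2C12. Mmp14 and Timp1 were called higher in LPS-MIC-1 than in LPS in both tables, by log2 fold changes of 3.91 and 6.55 in C2C12 and 1.54 and 2.93 in muscle.

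The genes whose log2 levels were most like a member over the 9 libraries of a table are a description of 3 groups that share labels and markers. In C2C12, Slc16a11 and Col8a1 were closest to Mmp2 and Htra1 and Lhfp to Mmp3, all with a Pearson r of 1.00, and 629 and 479 of 10877 genes had an r over 0.99 with these members. Mmp9 had only 25 such genes, with H2-Gs10 and Hmox1 the closest. In muscle, 34 of 9475 genes had an r over 0.99 with Mmp14, the closest being Klhl38 and Prom1, and 18 with Timp2, the closest being Dcakd and Tmem50b. For Mmp2, Timp1, Timp3 and Timp4 in muscle the number was 0.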

How the data were processed

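The authors quantified reads with kallisto and deposited FPKM per gene symbol, in 1 table per experiment; the submitters' processing notes name the mm9 build. Per the study's methods, FPKM over 1 went through tximport and DESeq2 in R to test for expression differences, and the authors also deposited DESeq2 tables of those comparisons (base mean, log2 fold change, standard error, statistic and p), which were not used. Unnamed columns of values, 9 in number, were not used. In each table genes with a mean over 1 FPKM were fitted as log2(FPKM + 0.1) in 3 groups with limma 3.58.1 (R 4.3.3, moderated with a trend), and Benjamini-Hochberg p-values were taken over all genes tested. Thresholds follow the study's methods. FPKM are not counts, so no count model was run, and the smallest exact permutation p of 3 against 3 is 0.1. The script was tested on simulated data. Alternatives were other pseudocounts, filters, scalings, thresholds and spread estimates, a replicate block, and each library left out; leaving out C2C12 LPS replicate 3 with LPS-MIC-1 replicate 1, the sum over all 22 MMPs and ratios of means without 1 library were added after seeing the data. The members and lists were chosen with earlier results of these data known. All members are named, and of the other lists the 2 called genes with the largest change per comparison whose groups do not overlap, except 1 that is not reported here; other genes named were chosen after their values were seen. Gene order is from the RefSeq table of GRCm38.p6, another build, and no coordinates are given.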

Additional observations from a re-analysis of the deposited data

Results flagged for a closer look

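Some members differed in direction between C2C12 and muscle, with all 3 libraries of a group above the other group in one table and below it in the other. Groups did not overlap for 79.4%, 85.5% and 83% of all C2C12 genes between LPS and control, LPS-MIC-1 and LPS, and LPS-MIC-1 and control. In muscle these shares were 36.5%, 64.2% and 64.6%, and the share of all genes that differed in direction was not counted. No muscle value listed here was called, and Mmp9 was there below the limit for testing. The tables were normalized separately, so the difference was not tested, and its values, C2C12 minus muscle, are on the log2 scale. For LPS against control it was 0.82 for Mmp2 (0.66 in C2C12 and -0.16 in muscle), 6.52 for Mmp9 (5.74 and -0.78), 3.22 for Mmp14 (2.84 and -0.38) and -1.19 for Timp2 (-1.01 and 0.18). For LPS-MIC-1 against LPS it was 9.21 for Timp2 (8.56 and -0.65). For LPS-MIC-1 against control it was 8.83 for Mmp2 (8.69 and -0.14), 8.02 for Timp2 (7.55 and -0.47) and 8.24 for Timp3 (7.92 and -0.32). The C2C12 values also set libraries with macrophage markers against libraries with myogenic markers in the contrasts with LPS-MIC-1. Between LPS and control both C2C12 groups carried macrophage markers, so those differences also set such libraries beside muscle tissue.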

How the results depend on the processing

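Of 813 values of members under alternatives, 805 kept their side of the threshold, 4 lost a call and 4 gained one. Of the called values, 0 reversed direction. Differences that were not called could change sign, as for Timp3 in C2C12 between LPS and control, which ran from -0.20 to 0.19. In muscle, the count of 2 members called between LPS-MIC-1 and LPS became 1 with a pseudocount of 0.01 (Timp1, limma adjusted p = 0.0823) or an adjusted p under 0.001, and 0 with a mean over 5 FPKM, which tested only 4 members and neither of those called. Against control it became 1 with a pseudocount of 1 (Mmp14, log2 fold change 0.95) and 0 with a mean over 5 FPKM. In C2C12, Mmp13 between LPS-MIC-1 and LPS missed the threshold with a pseudocount of 0.01 (limma adjusted p = 0.00104), and Timp2 between LPS and control was called with an adjusted p under 0.05. With single libraries left out, members called ranged from 4 to 5, 8 to 8 and 7 to 8 in C2C12 for LPS against control, LPS-MIC-1 against LPS and LPS-MIC-1 against control, and from 0 to 0, 2 to 3 and 2 to 3 in muscle. With both doubted C2C12 libraries left out the counts were 5, 8 and 7.

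Over all genes in muscle, 118 called between LPS and control became 71 with a pseudocount of 1, 57 with a mean over 5 FPKM and 52 with an adjusted p under 0.001. The 1431 called between LPS-MIC-1 and LPS became 2158 with no filter and 656 with a mean over 5 FPKM, and the 1464 against control became 2240 and 677. Quantile normalization moved the median of all genes in muscle to -0.12 between LPS-MIC-1 and LPS. Replicate numbers did not pair the libraries: same-numbered libraries had correlations of deviations from -0.08 to 0.08, and the replicate block left the member counts at 4, 8 and 7 in C2C12 and 0, 2 and 2 in muscle.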
